A study of Mus musculus with 24 samples.

Results

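The collagen chains other than those of cartilage were followed through the developing mouse jaw. The family was taken by gene symbol, as every collagen chain on a list of 32 outside types II, IX, X and XI. Of the 32 genes, 31 had a probe set that carried their symbol alone, and the brightest probe set stood for each gene. Of these, 29 exceeded the median of the array in at least 3 of the 24 arrays and were tested among 12811 genes. Col4a3 and Col4a4 never exceeded that median and were not tested, with values between 4.91 and 5.74 in all arrays. Col28a1 had no probe set and was dropped.

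Each array held RNA from a piece of jaw of a C57B6 embryo at embryonic day 14.5. The mutants came from crosses of Wnt1-Cre;Tgfbr2 fl/+ with Tgfbr2 fl/fl mice and were recognised by their cleft palate and skull defect, and the controls were littermates of an allele combination that the sources used here do not give. Maxilla (upper jaw) and mandible (lower jaw) were each separated into distal and proximal ends, giving 8 groups of 3 arrays: control and mutant distal maxilla, proximal maxilla, distal mandible and proximal mandible. Tgfbr2 encodes the type II receptor for TGF-beta. Wnt1-Cre acts in the neural crest, the source of most jaw bone, cartilage and connective tissue. Epithelium, skeletal muscle and the endothelium of blood vessels in the mutants therefore keep the receptor gene. Whether arrays of a group came from separate embryos is not stated, so a p-value here reflects the spread of these arrays alone, which may be technical.

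Collagens are triple helices of 3 polypeptide chains. Fibril-forming types I, III and V make up the cables of bone, skin and tendon, type IV forms the sheet of the basement membrane, type VI a beaded filament around cells, and type VII the fibrils that anchor epithelium to the tissue beneath. TGF-beta is known as a strong inducer of fibrillar collagen genes in many mesenchymal cells. All values are log2 signals or differences of log2 signals, in which 1 unit is a doubling. Levels are compared between groups for 1 gene and never between genes, since probe sets differ in brightness.

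The start sites of 25 of the 32 genes had a promoter window in RefSeq (build GRCm38.p6), from 250 bases before the start to 50 after it. Col4a1 and Col4a2, which encode the most widespread type IV chains, lie head to head on chromosome 8, and their windows shared a stretch of 78 bases at chr8:11312777-11312854, shown in capitals. These windows are shown because the pair moved by nearly the same amount in every region on the brightest probe sets. Col4a1 is read on the minus strand (chr8:11312777-11313076) and Col4a2 on the plus strand (chr8:11312555-11312854), 5′ to 3′:
Col4a1: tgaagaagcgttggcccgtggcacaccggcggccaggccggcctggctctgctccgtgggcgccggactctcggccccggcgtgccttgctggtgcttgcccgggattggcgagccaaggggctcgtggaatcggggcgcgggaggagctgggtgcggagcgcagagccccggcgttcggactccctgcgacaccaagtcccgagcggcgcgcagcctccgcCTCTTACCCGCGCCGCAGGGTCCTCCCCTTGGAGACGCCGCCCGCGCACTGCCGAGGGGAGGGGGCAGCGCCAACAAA
Col4a2: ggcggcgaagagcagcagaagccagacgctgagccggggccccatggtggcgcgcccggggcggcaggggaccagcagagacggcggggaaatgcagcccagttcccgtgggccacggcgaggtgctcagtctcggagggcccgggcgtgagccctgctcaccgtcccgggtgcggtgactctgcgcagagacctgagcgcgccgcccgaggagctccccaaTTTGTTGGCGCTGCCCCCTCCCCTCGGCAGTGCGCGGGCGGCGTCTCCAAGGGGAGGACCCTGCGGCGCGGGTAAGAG
The windows of Col7a1 (chr9:108953336-108953635, plus strand) and Col8a1 (chr16:57754688-57754987, minus strand) are shown because Col7a1 rose and Col8a1 fell in the mutant proximal maxilla. Capitals mark CAGAC or its complement GTCTG, the core of the element that Smad proteins, the transducers of TGF-beta signals, bind:
Col7a1: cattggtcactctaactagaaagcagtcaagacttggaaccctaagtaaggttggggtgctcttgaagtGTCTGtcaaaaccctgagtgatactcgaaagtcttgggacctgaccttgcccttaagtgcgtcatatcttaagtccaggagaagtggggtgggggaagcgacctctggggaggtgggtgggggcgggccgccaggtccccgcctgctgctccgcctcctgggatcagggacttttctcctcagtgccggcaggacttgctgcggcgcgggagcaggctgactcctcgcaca
Col8a1: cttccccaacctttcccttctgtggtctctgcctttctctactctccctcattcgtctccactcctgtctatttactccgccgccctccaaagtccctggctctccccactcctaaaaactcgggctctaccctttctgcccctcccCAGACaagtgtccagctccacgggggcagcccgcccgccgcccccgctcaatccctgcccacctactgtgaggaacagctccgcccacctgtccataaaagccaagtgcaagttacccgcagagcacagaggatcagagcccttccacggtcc
Each of the 2 windows holds 1 match, although the genes moved in opposite directions. CAGAC or GTCTG was found in 15 of the 27 windows of the family and in 49.6% of 32851 mouse promoters of the same length. The CCAAT box (CCAAT or ATTGG) was found in 10 of the 27 and 37.4% of all, TATAAA or TTTATA in 3 and 13.6%, and the GC box (GGGCGG or CCGCCC) in 15 and 35.7%. A match is a description of the letters and not evidence of binding.

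Tissue marker levels differed between arrays of 1 group in the maxilla, and whether this came from dissection or from the mutation cannot be told from the labels. Marker lists were averaged per array and centred on all 24 arrays. In the control proximal maxilla, the 9 tested of 10 markers of nasal epithelium had means of 3.37, 3.37 and 3.26, against −1.67, −1.30 and 2.59 in mutant arrays 1, 2 and 3. The 12 skeletal muscle markers had means of −1.45, −1.93 and −0.89 in control and 1.88, 1.02 and −0.12 in mutant arrays, and the 10 chondrocyte markers 1.64, 0.28 and 1.61 against −2.60, −2.59 and 0.76. In the fit 9 of 9 nasal and 6 of 10 chondrocyte markers were lower there and 8 of 12 muscle markers higher. Mutant distal maxilla array 1 was alike, at −0.51, 1.12 and −2.53 for the 3 lists, while its group mates stood at 0.86 and 1.44 for nasal, −2.53 and −1.87 for muscle and 0.36 and 0.41 for chondrocyte markers. Hand2, a gene of the lower jaw, read 5.27 to 7.39 in the 12 maxilla arrays and 9.48 to 12.98 in the 12 mandible arrays of both genotypes, without overlap. The highest maxilla value was that of mutant distal maxilla 1. The mean of all 5 jaw identity markers was −0.11 in that array, −0.85 and −0.57 in its group mates and −0.13 in mutant distal mandible 1. These markers ran opposite ways between jaws in control distal pieces. Hand2 read 12.41 in mandible and 5.53 in maxilla there, and Nr2f1 8.24 and 10.30. Dlx5 and Dlx6 ran with Hand2 there and Pou3f3 with Nr2f1. In control proximal pieces all 5 were higher in mandible, with Pou3f3 at 9.80 and 9.39 and Nr2f1 at 11.15 and 11.04. The mean therefore does not by itself measure jaw identity. The labels call the pieces bone, and 5 of 9 osteoblast markers were tested, since the rest were dim. Tgfbr2 itself gave group means of 11.6 to 12.1 in control and 12.3 to 12.4 in mutant groups on its brightest probe set, and as the sources used here do not give the deleted exon it does not check the genotype. In tissue pieces, fewer cells of a type and less RNA per cell cannot be told apart.

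In the proximal maxilla, the mutants had higher signals for much of the family. Of the 29 chains tested, 15 were higher and 1, Col8a1, was lower (limma, adjusted p under 0.05), in a comparison in which 23.3% of all genes passed, 12.2% higher and 11.1% lower. The arrays of the genotypes did not overlap for 65.5% of the chains, against 36.2% of all genes. The median difference over the chains was 0.43, against 0.01 over all genes. In the other regions 0 chains passed: of all genes, 0.195% passed in the distal maxilla (0.109% higher, 0.0859% lower), 0.742% in the distal mandible (0.273% higher, 0.468% lower) and 4.34% in the proximal mandible (1.27% higher, 3.07% lower). At an unadjusted p under 0.05 the chains that passed limma's test numbered 20 of 29 in the proximal maxilla (34.8% of all genes), 3 in the distal maxilla (9.19%), 6 in the distal mandible (12.6%) and 6 in the proximal mandible (19.5%). With array weights the adjusted threshold was passed by 2 chains in the distal maxilla (4.4% of all genes), 2 in the distal mandible (7.68%) and 6 in the proximal mandible (13.2%).

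**Figure D1:**
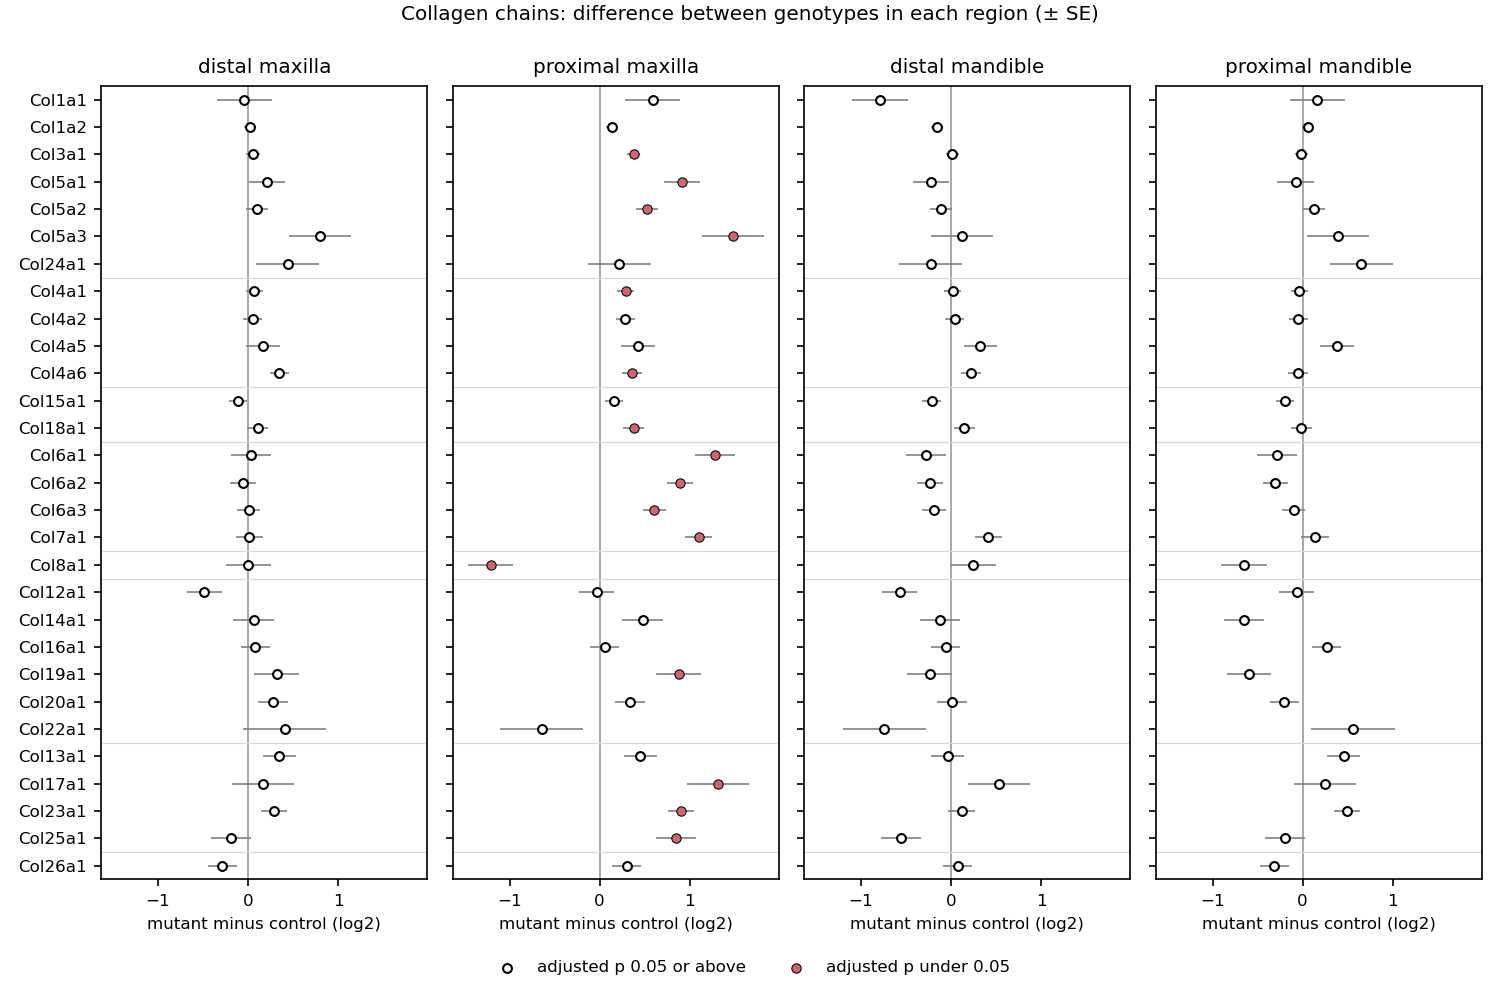
Mutant minus control difference (log2, horizontal axis) of the 29 tested collagen chains in each of the 4 regions, with bars of 1 standard error from the limma fit and 3 arrays per group. Filled points passed an adjusted p of 0.05; they occur in the proximal maxilla alone, 15 to the right of 0 and Col8a1 to the left, and grey lines part the chains by role.

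The mutant arrays did not contribute alike to the proximal maxilla difference. Against the control mean, 28, 23 and 25 of the 29 chains were higher in mutant arrays 1, 2 and 3, with median differences of 0.65, 0.41 and 0.23, and the smallest median was that of array 3, the one with nasal markers. Dropping the 3 mutant arrays of the maxilla that lacked nasal markers left array 3 as the 1 mutant array of the proximal maxilla, taken to vary like the other groups. The difference was then 0.73 for Col6a1 and 0.51 for Col6a2. For each chain that had passed with 3 mutant arrays, the difference left with array 3 alone was smaller in size. For Col5a3 it was 0.61 beside 1.48, for Col6a3 0.30 beside 0.61 and for Col23a1 0.86 beside 0.90. Since the group fell from 3 arrays to 1, a lost call does not by itself show a smaller difference. With the nasal and muscle means as covariates 0 chains and 0.351% of all genes passed. With the keratinocyte mean as covariate 4 chains did (Col6a1, Col6a2, Col6a3 and Col23a1), and 2.29% of all genes. The part of tissue content in these differences was not tested beyond these fits.

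Among the fibril-forming chains, 4 of 7 were higher in the mutant proximal maxilla, beside 15 of the 29 chains and 12.2% of all genes. These 4 were Col3a1, Col5a1, Col5a2 and Col5a3. Type V chains co-assemble with type I and set fibril width, and Col5a3 encodes the rarest of them. Col5a3 read 6.96, 6.71 and 6.93 in control and 9.07, 8.49 and 7.47 in mutant arrays. It rose by 1.48 ± 0.34 (adjusted p = 0.00511), the largest difference among the chains, and mutant array 3 stood nearest the controls. A second, dim probe set gave 0.18. On the brightest probe set all 3 control values lay below the medians of their arrays (6.99, 6.96 and 6.99). Array 3 alone lay 0.61 above the control mean. In the distal maxilla Col5a3 read 7.10, 6.88 and 6.76 in control against 8.62, 7.24 and 7.28 in mutant arrays, again without overlap and with array 1 far above the others. That difference of 0.80 did not pass (adjusted p = 0.48).

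Col5a1 read 11.67, 11.18 and 11.34 in control and 12.72, 12.25 and 11.98 in mutant proximal maxilla, a rise of 0.92 ± 0.20 (adjusted p = 0.00406). All 3 of its probe sets gave rises, of 0.86 to 1.02. Col5a2 read 13.07, 12.78 and 12.90 against 13.66, 13.47 and 13.22 (0.53 ± 0.12, adjusted p = 0.00514). Neither gene had an overlap between genotypes there. The 7 markers of dermal and loose mesenchyme, cells that make these chains, had means of −0.79, −0.83 and −0.61 in control and 0.91, 0.81 and 0.46 in mutant proximal maxilla, 6 of the 7 higher. They were apart in every array, and their part in the result was not tested. In the distal mandible the mutants lay the other way, with Col5a1 at 12.27, 12.08 and 12.18 in control and 12.05, 11.91 and 11.90 in mutant arrays, though the difference of −0.22 ± 0.20 did not pass (adjusted p = 0.71).

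Col3a1, whose chain forms the reticular fibrils of soft connective tissue, read 13.89, 13.82 and 13.84 in control and 14.35, 14.26 and 14.09 in mutant proximal maxilla. It rose by 0.38 ± 0.07 (adjusted p = 0.00166). Its brightest probe set lay near the top of the measured range, which ended at 14.8, and a second, dimmer probe set gave a difference of 0.95. In the other regions the difference lay between −0.02 and 0.06.

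The type I chains, the main protein of bone, did not pass in any region. Col1a1 read 12.76, 11.47 and 12.05 in control and 13.11, 12.62 and 12.33 in mutant proximal maxilla, with overlapping groups and a difference of 0.59 ± 0.31 (95% interval −0.06 to 1.24, adjusted p = 0.182). Osteoblast means there were −0.36, −0.69 and −1.63 in control and −0.34, −0.74 and −1.07 in mutant arrays. In the distal mandible the groups were apart, at 12.61, 12.24 and 12.49 in control and 11.82, 11.62 and 11.52 in mutant arrays, and Col1a2 likewise read 14.45, 14.45 and 14.47 against 14.30, 14.32 and 14.27. The differences of −0.79 ± 0.31 and −0.16 ± 0.07 had adjusted p-values of 0.279 and 0.33. A second Col1a1 probe set gave −0.12 in the distal mandible, so the size of that difference depends on the probe set, and Col1a2 lies at the top of the range. Col24a1, a minor fibrillar chain found in bone, differed by −0.23 to 0.65 between genotypes and did not pass.

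In the distal mandible the direction of many chains was shared without passing. The 3 mutant arrays lay wholly below the 3 controls for 11 chains (Col1a1, Col1a2, Col5a1, Col5a2, Col6a1, Col6a2, Col6a3, Col12a1, Col15a1, Col22a1 and Col25a1) and wholly above for Col4a6 and Col7a1, that is 44.8% of the chains against 22.0% of all genes. In the proximal mandible 7 chains did not overlap, 24.1% against 24.2% of all genes, and in the distal maxilla 3, 10.3% against 11.6%. Chondrocyte marker means in the distal mandible were 0.79, 1.03 and −0.24 in control and −2.08, 0.37 and −1.73 in mutant arrays, and muscle means 1.40, 0.71 and 1.43 against 0.29, −0.43 and 0.06. The 5 tendon markers had means of 1.03, 0.85 and 0.37 in control and −0.70, −0.46 and −0.57 in mutant arrays, without overlap. The part of these tissues in the collagen differences was not tested there.

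The 3 main type VI chains rose together in the mutant proximal maxilla. Type VI filaments surround muscle fibres, fibroblasts and chondrocytes, and the 3 chains make up 1 molecule. Col6a1 read 11.33, 11.27 and 11.03 in control and 12.97, 12.55 and 11.94 in mutant arrays, a rise of 1.28 ± 0.22 (2.43-fold, adjusted p = 0.000831). Col6a2 read 12.19, 12.14 and 12.03 against 13.28, 13.14 and 12.63 (0.89 ± 0.14, adjusted p = 0.000558). Col6a3 read 12.70, 12.55 and 12.40 against 13.42, 13.19 and 12.85 (0.61 ± 0.13, adjusted p = 0.00307). For all 3 genes each mutant array was above each control, and array 3, the one with nasal markers, was the lowest of the mutants.

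It was the control proximal maxilla that stood apart for these genes. Its 3 arrays lay below all 21 other arrays for 6 of the 29 chains (Col3a1, Col5a1, Col5a2, Col6a1, Col6a2 and Col6a3), which was 20.7% of the chains and 3.09% of all genes. In the mutant, Col6a1 had a mean of 12.49 there, beside control means of 12.09, 12.44 and 12.38 in the distal maxilla, distal mandible and proximal mandible. The mutant mandible lay the other way, at 12.12, 12.25 and 12.09 against 12.52, 12.45 and 12.34 in the control distal end and at 12.09, 12.13 and 12.06 against 12.50, 12.20 and 12.44 in the proximal end. Those groups did not overlap, but the differences of −0.28 and −0.29 did not pass (adjusted p = 0.645 and 0.52).

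The response to the mutation differed between jaws for 5 chains (8.26% of all genes passed this test, 3.93% higher and 4.33% lower). Each difference was lower in the mandible than in the maxilla. For Col6a1 the mutant minus control difference was 0.66 in the maxilla and −0.29 in the mandible. It was 0.42 and −0.27 for Col6a2, and 0.31 and −0.14 for Col6a3. The maxilla values average both ends, which for Col6a1 gave 1.28 in the proximal and 0.03 in the distal maxilla. For Col6a2 these ends gave 0.89 and −0.05, and for Col6a3 0.61 and 0.01. The difference between jaws was −0.94 ± 0.22, −0.69 ± 0.14 and −0.45 ± 0.13 (adjusted p = 0.0195, 0.0138 and 0.0404). Col5a1 (−0.71 ± 0.20, adjusted p = 0.0405) and Col19a1 (−1.01 ± 0.25, adjusted p = 0.0226) were the others. Of 33 other settings, the call was lost in 21 for Col5a1 and in 20 for Col6a3, mostly on leaving out 1 array, but in 1 each for Col6a1 and Col6a2; Col19a1 lost it in 2 of 32. Without the 3 arrays lacking nasal markers, which leaves 1 mutant proximal and 2 mutant distal maxilla arrays and takes the spread from the other groups, Col6a1 (−0.50, adjusted p = 0.0366) and Col6a2 (−0.40, adjusted p = 0.0321) passed, with 0.523% of all genes. With the nasal and muscle means as covariates 0 chains and 0.328% of all genes passed. Between ends 0 chains and 0% of all genes passed in limma's fit. There 11 chains had an unadjusted p under 0.05 (7.67% of all genes), and 12 passed with array weights (8.9%).

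**Figure D2:**
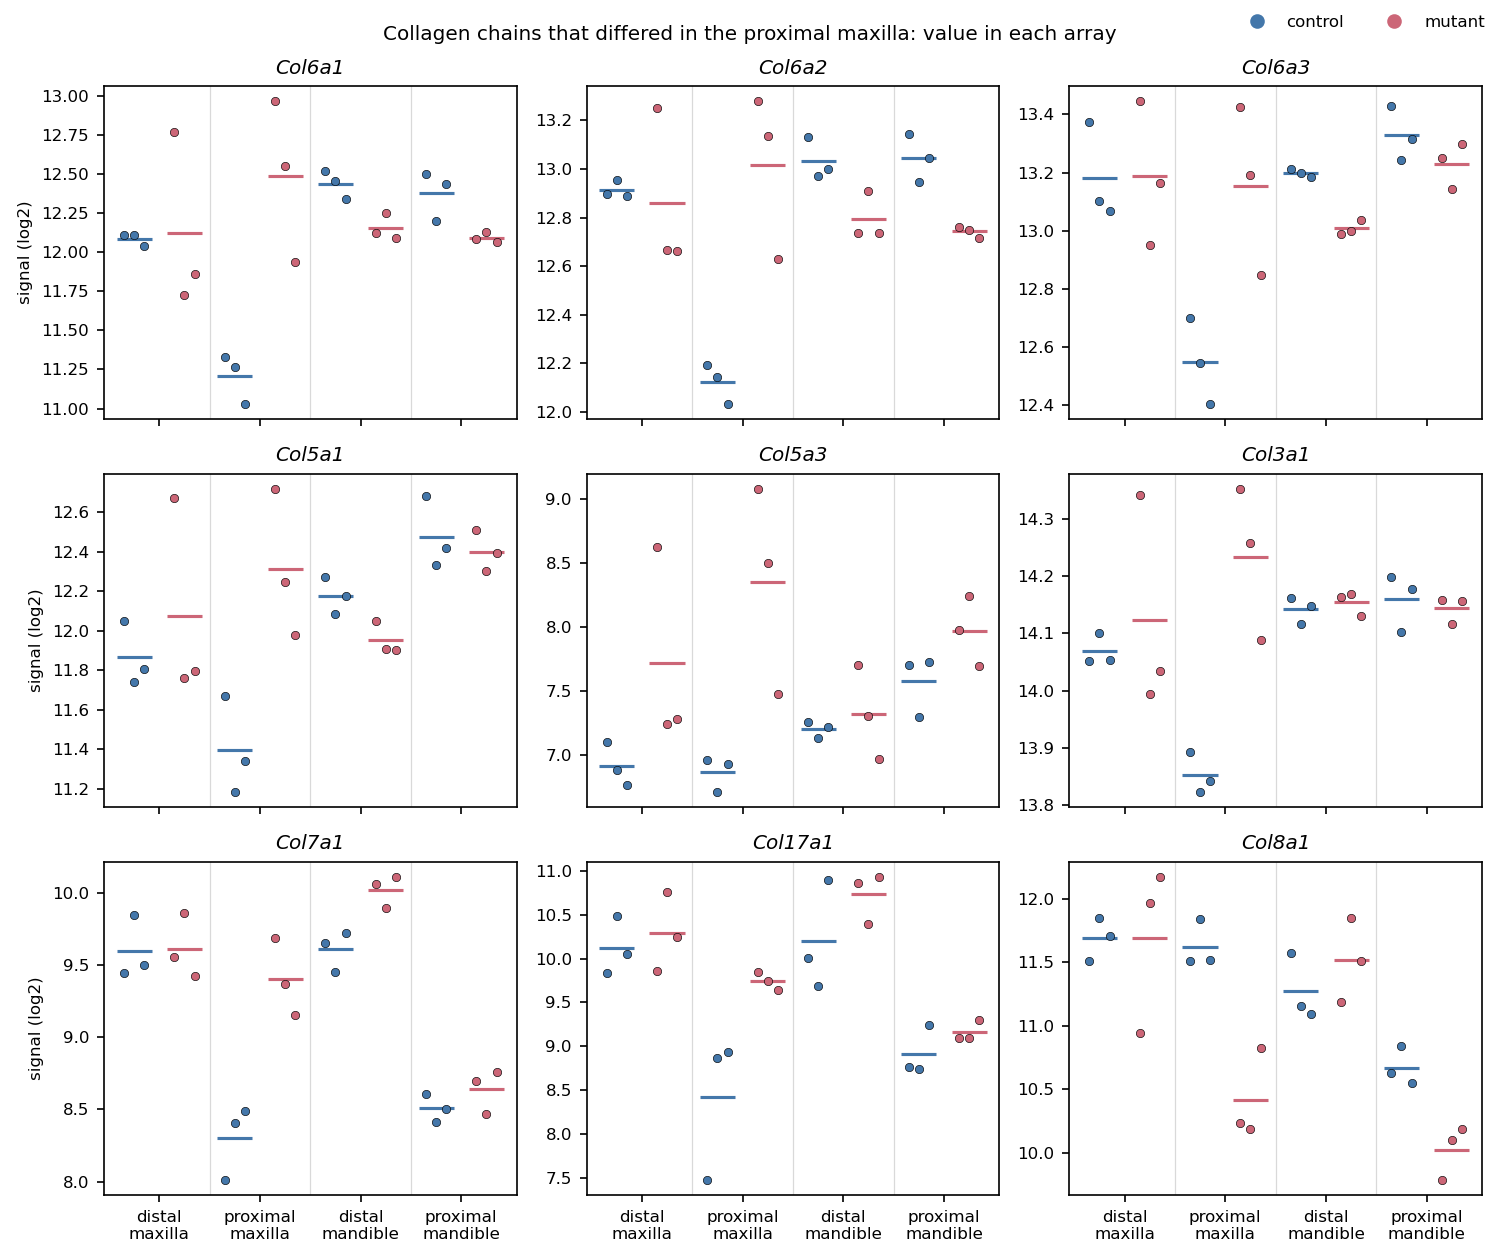
Signal (log2) in each of the 24 arrays for 9 collagen chains that passed in the proximal maxilla, with control arrays in blue, mutant arrays in red and a line at each group mean, arrays 1 to 3 running left to right within a group. For the type VI chains, Col5a1 and Col3a1 the 3 control proximal maxilla arrays are the lowest of all, while Col7a1 and Col17a1 are low in proximal pieces except the mutant proximal maxilla.

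Col7a1 and Col17a1 belong to the junction of epithelium and connective tissue. The type VII chain builds anchoring fibrils, and the type XVII chain is a transmembrane part of the hemidesmosome of basal keratinocytes. Col7a1 read 8.01, 8.40 and 8.49 in control and 9.69, 9.37 and 9.15 in mutant proximal maxilla (1.10 ± 0.15, adjusted p = 0.000248). Col17a1 read 7.48, 8.86 and 8.94 against 9.85, 9.74 and 9.64 (1.32 ± 0.34, adjusted p = 0.00996). Both were separated in every array, and control array 1 was far below its mates for Col17a1. Without that array the Col17a1 difference was 0.84 and did not pass (adjusted p = 0.0646). Of 11 keratinocyte markers, 9 were higher and 1 lower in the mutant proximal maxilla. Epcam went from 13.26 to 12.12 and Cdh1 from 12.10 to 11.79, against the rest. Keratinocyte marker means (11 genes) were −1.96, −1.58 and 0.14 in the control arrays of that region and 0.87, 0.77 and 0.65 in the mutants. With that mean as a covariate the differences were 0.65 (adjusted p = 0.0546) for Col7a1 and 0.05 (adjusted p = 0.939) for Col17a1.

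Col7a1 was the 1 chain that passed in the average of the 4 regions, where 1.09% of all genes passed, 0.703% higher and 0.39% lower. It was higher by 0.42 ± 0.06 (limma, adjusted p = 0.0429). Its mutant distal mandible arrays, at 10.06, 9.90 and 10.11, were above all 21 others, as held for 1.18% of all genes. The control distal mandible read 9.65, 9.45 and 9.72, and the difference of 0.41 ± 0.15 did not pass there on its own (adjusted p = 0.252). In the distal maxilla the difference was 0.01 and in the proximal mandible 0.14. The average lost its call in 9 of 15 other settings, without any 1 replicate number except mutant 3 among them (adjusted p = 0.0767 to 0.192). With the keratinocyte mean as a covariate it was 0.36 (adjusted p = 0.451).

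Of the 4 type IV chains tested, 2 were higher in the mutant proximal maxilla, where 12.2% of all genes were. Their median difference there was 0.32, against 0.43 over the family. Col4a1 read 12.63, 12.37 and 12.50 in control and 12.97, 12.73 and 12.66 in mutant proximal maxilla, a rise of 0.29 ± 0.10 (adjusted p = 0.0366). A second, dimmer Col4a1 probe set gave 0.42. Col4a2, from the shared promoter stretch, read 11.72, 11.30 and 11.58 against 12.03, 11.75 and 11.68, with a difference of 0.29 ± 0.11 that did not pass (adjusted p = 0.062). In the distal maxilla, distal mandible and proximal mandible the differences of the pair were 0.07 and 0.05, 0.02 and 0.04, and −0.04 and −0.05. Col4a6, an X-linked chain of epithelial and smooth muscle basement membranes, rose by 0.36 ± 0.11 in the proximal maxilla (adjusted p = 0.0247). Its head-to-head neighbour Col4a5, whose window lies 842 bases away, differed by 0.43 ± 0.19 without passing (adjusted p = 0.11). The 10 endothelial markers, of cells rich in type IV collagen, had means of −0.14, −0.22 and −0.24 in control and 0.40, 0.31 and 0.07 in mutant proximal maxilla, 6 of them higher, and their part was not tested. The calls for Col4a1 and Col4a6 were each lost in 8 of 16 other settings.

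Col18a1, whose chain carries endostatin at its end and decorates basement membranes, rose by 0.38 ± 0.12 in the proximal maxilla (adjusted p = 0.0252), a call lost in 7 other settings and turned to −0.04 with the nasal and muscle covariates. Its relative Col15a1 differed by 0.16 ± 0.10 without passing. In both mandible ends Col15a1 was lower in every mutant array than in every control, by 0.22 and 0.19, and did not pass (adjusted p = 0.39 and 0.31).

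Type VIII collagen, a short-chain network of blood vessel walls and of the corneal basement membrane, held the 1 chain that passed in the lower direction. Col8a1 read 11.51, 11.85 and 11.52 in control and 10.23, 10.19 and 10.82 in mutant proximal maxilla and fell by 1.21 (SE 0.25, adjusted p = 0.00289). All 3 of its probe sets were lower there, by 0.99 to 1.39. In the proximal mandible the mutants, at 9.78, 10.10 and 10.19, were below all 21 other arrays, as held for 1.4% of all genes. Controls there read 10.63, 10.84 and 10.55, and the difference of −0.65 ± 0.25 did not pass (limma, adjusted p = 0.16). In the distal maxilla array 1 stood low, at 10.94 beside 11.97 and 12.18, with controls from 11.51 to 11.85, and the difference was 0.00. Array 3 of the mutant proximal maxilla alone differed from the control mean by −0.80.

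Its partner chain Col8a2, outside the 32 genes, was lower in mutants in all 4 regions. The arrays read 12.28, 12.28 and 12.26 in control against 11.45, 11.56 and 11.88 in mutant distal maxilla, and 12.33, 12.22 and 12.30 against 11.16, 11.29 and 10.97 in the proximal maxilla. In the distal mandible they read 11.81 to 12.33 against 11.18, 11.46 and 11.23, and in the proximal mandible 12.23, 12.39 and 12.19 against 11.48, 11.55 and 11.76. No region had an overlap, and the falls of 0.64, 1.14, 0.76 and 0.67 all passed (adjusted p = 0.0407, 7.74e-05, 0.00613 and 0.00711). The average of regions was −0.80 ± 0.07 (adjusted p = 0.0157). Col8a2 thus changed in regions where no member of the family passed.

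Among the transmembrane chains besides Col17a1, Col23a1 and Col25a1 rose in the mutant proximal maxilla. Col23a1 read 9.22, 9.61 and 9.16 in control and 10.19, 10.31 and 10.18 in mutant arrays (0.90 ± 0.14, adjusted p = 0.000573), and here array 3 was as high as its mates. Array 3 alone lay 0.86 above the control mean. It was also higher in every mutant array of the proximal mandible, at 9.66, 9.74 and 9.77 against 9.12, 9.41 and 9.15 (0.49 ± 0.14, adjusted p = 0.0612), and in the distal maxilla by 0.29 (adjusted p = 0.58). Col25a1, first known from amyloid plaques and required in muscle for motor nerves to enter it, read 10.09, 10.26 and 9.99 against 10.96, 11.19 and 10.73. Its mutant proximal maxilla arrays were above all 21 others, as held for 0.375% of all genes. The difference from control was 0.85 ± 0.22 (limma, adjusted p = 0.0106), while a second, dimmer probe set gave 0.17. Col13a1, a chain of cell adhesion sites and neuromuscular junctions, differed there by 0.45 ± 0.18 (adjusted p = 0.0843).

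The 6 fibril-associated chains sit on the surface of fibrils. Of these, Col19a1 was the 1 that passed in the proximal maxilla, where 23.3% of all genes did. Type XIX collagen marks basement membrane zones and is needed for smooth muscle of the gullet to mature. Col19a1 read 6.55, 6.45 and 6.67 in control and 7.71, 7.53 and 7.07 in mutant proximal maxilla (0.88 ± 0.25, adjusted p = 0.0166). In the proximal mandible it lay the other way, with controls at 7.85, 7.18 and 8.28 and mutants at 7.06, 7.07 and 7.38, groups that overlapped (−0.60 ± 0.25, adjusted p = 0.19). The proximal maxilla values lie near the array medians of 6.93 to 6.999. Col12a1, Col14a1, Col16a1, Col20a1 and Col22a1 differed by −0.64 to 0.48 in the proximal maxilla. Col12a1, an organiser of tendon and bone surface, differed by −0.57 in the distal mandible (adjusted p = 0.21), and Col14a1 by −0.65 in the proximal mandible (adjusted p = 0.11). Col26a1, a little studied secreted chain, differed by −0.32 to 0.30 over the regions.

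**Figure D3:**
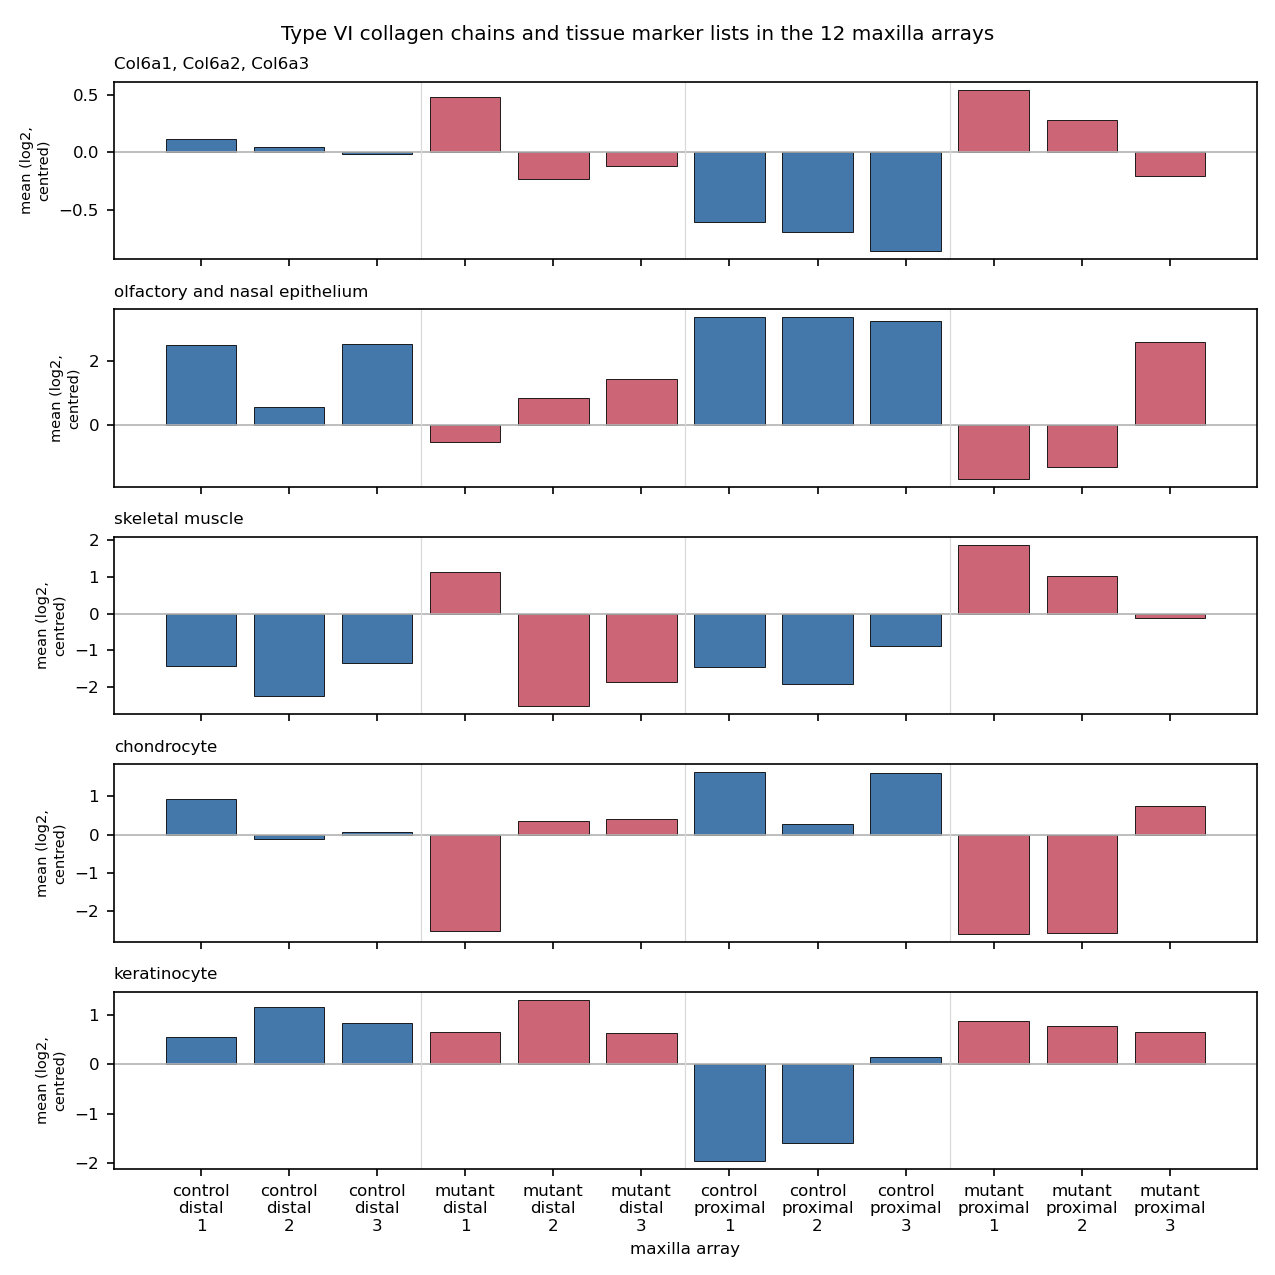
Mean log2 signal of the 3 main type VI chains (top) and of 4 marker lists in the 12 maxilla arrays, each gene centred on its mean over 24 arrays, so bars start at 0. The type VI mean was highest in mutant proximal maxilla 1 (0.54), mutant distal maxilla 1 (0.48) and mutant proximal maxilla 2 (0.28), the arrays low in nasal and chondrocyte and high in muscle markers, and lowest in the 3 control proximal maxilla arrays (−0.61 to −0.86).

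Among controls, the family differed between jaws. Of the 29 chains, 13 were higher and 3 lower in mandible than in maxilla (36.2% of all genes passed, 16.9% higher and 19.4% lower). The higher chains held 6 of the 7 fibril-forming chains, with Col1a1 (0.61 ± 0.22), Col5a1 (0.69 ± 0.14), Col5a2 (0.49 ± 0.09), Col24a1 (1.07 ± 0.25), Col3a1 (0.19) and Col1a2 (0.16). Col1a1, Col1a2 and Col24a1 were higher in the proximal ends alone. Their distal means were 12.44 in mandible and 12.77 in maxilla, 14.45 and 14.52, and 7.88 and 7.89. Proximal means were 13.65 and 12.10, 14.71 and 14.33, and 9.73 and 7.58. Col3a1, Col5a1 and Col5a2 were higher in mandible at both ends. The Col1a1 call was kept in 11 of 22 other settings. All 3 type VI chains were higher, by 0.40 to 0.76. The largest differences were those of Col22a1 (1.44 ± 0.33, adjusted p = 0.002), a chain of muscle and tendon junctions, and Col13a1 (1.27 ± 0.13, adjusted p = 3.24e-06). Col19a1 (0.90) and Col20a1 (0.33) were higher too, while Col14a1 (−0.73), Col8a1 (−0.69) and Col23a1 (−0.31) were lower. The type IV chains lay between −0.15 and 0.17 and did not pass. Muscle markers were −2.24 to −0.89 in control maxilla and 0.71 to 2.10 in control mandible arrays and nasal markers 0.57 to 3.37 and −1.49 to −1.22, and with both means as covariates 3 chains and 2.29% of all genes passed. Of the 16 chains, 1 kept its call (Col14a1) and 9 turned their direction (Col1a1, Col1a2, Col3a1, Col5a1, Col6a1, Col6a2, Col6a3, Col8a1 and Col20a1).

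The distal and proximal ends of control jaws differed in 3 chains, all higher distally (8.49% of all genes passed, 5% higher and 3.5% lower). Col7a1 was higher by 1.20 ± 0.11 (adjusted p = 8.89e-06) and Col17a1 by 1.49 ± 0.24 (adjusted p = 0.00123). Col7a1 read 9.45 to 9.85 in control distal and 8.01 to 8.60 in control proximal arrays, and Col17a1 9.69 to 10.90 and 7.48 to 9.24, without overlap. Col6a2 was higher by 0.39 ± 0.10 (adjusted p = 0.022) on average, but in the maxilla alone. Its control means were 12.91 distally and 12.12 proximally in the maxilla, and 13.03 and 13.05 in the mandible. The Col6a2 call was lost in 6 of 22 other settings. Keratinocyte means were −0.37 to 1.16 in control distal and −1.96 to 0.14 in control proximal arrays, and with that mean as covariate 0 chains and 0.0312% of all genes passed. The differences were then 0.77 for Col7a1 (adjusted p = 0.103), 0.28 for Col17a1 and 0.49 for Col6a2.

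**Figure D4:**
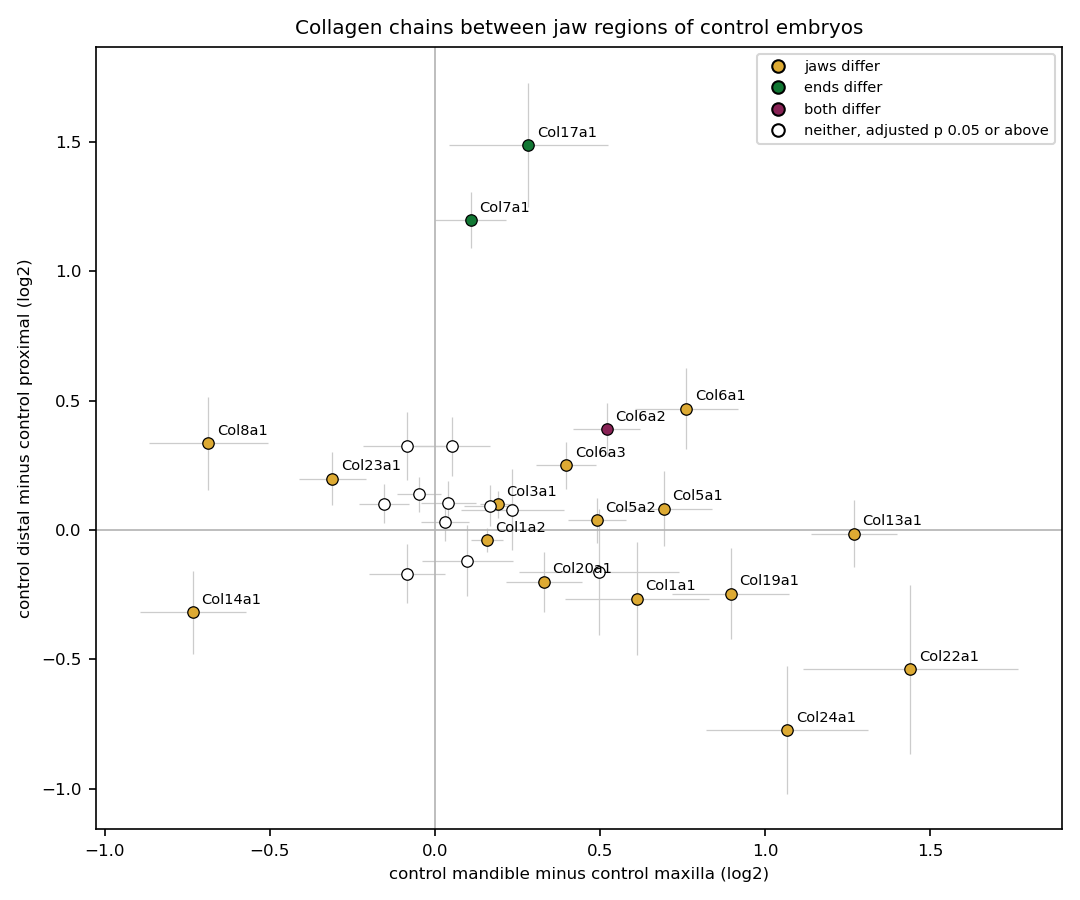
Control mandible minus maxilla (horizontal) against control distal minus proximal (vertical) difference for the 29 tested chains (log2, bars of 1 standard error, 6 arrays a side). Named points passed an adjusted p of 0.05 in at least 1 comparison; Col7a1 and Col17a1 lie high at 1.20 and 1.49, and Col22a1, Col13a1 and Col24a1 lie to the right at 1.07 to 1.44.

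Some chains marked 1 region in both genotypes. In 5 of the 29 (17.2%, against 2.13% of all genes) the 6 proximal mandible arrays, control and mutant, lay above all 18 others. Col1a1 read 13.34 to 14.02 there and 11.47 to 13.26 elsewhere, and Col1a2 14.68 to 14.83 and 14.24 to 14.63. Col13a1 read 10.32 to 11.15 and 8.20 to 9.94, Col22a1 11.36 to 12.52 and 7.79 to 10.82, and Col24a1 9.52 to 10.56 and 6.89 to 8.93. Col13a1 was also below all others in the 6 proximal maxilla arrays (8.20 to 9.004). Between genotypes these 5 chains differed by 0.07 to 0.65 in the proximal mandible and did not pass (adjusted p = 0.165 to 0.827). The 5 osteoblast markers had means of 0.91 to 1.76 in these 6 arrays and −1.63 to 0.76 in the 18 others, and their part in the collagen levels was not tested.

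**Figure D5:**
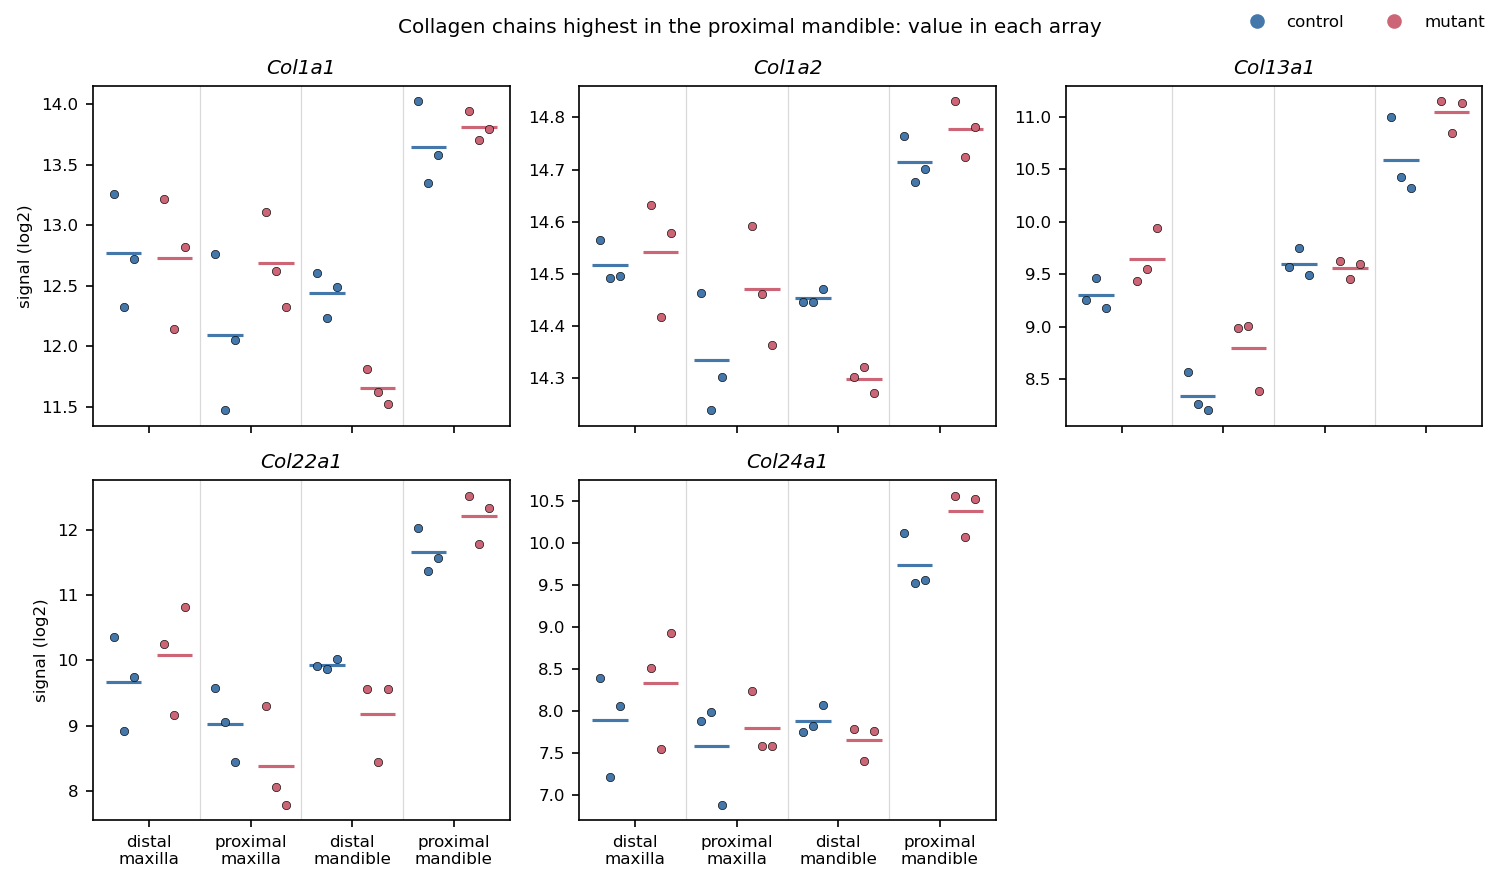
Signal (log2) in each array of the 5 chains whose 6 proximal mandible arrays lie above the 18 others, with control in blue, mutant in red and a line at each group mean. Col1a1 also shows the distal mandible, where mutants read 11.52 to 11.82 and controls 12.24 to 12.61, a difference that did not pass.

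Genes that make, cut and hold collagen were compared in the mutant proximal maxilla, where 23.3% of all genes passed, 12.2% higher and 11.1% lower. Of 18 folding and modification genes 2 were higher (P3h2, 0.84, and Plod1, 0.36) and 2 lower (P4ha3, −1.25, and Plod2, −0.70), a share near that of all genes. P3h2 and P4ha3 hydroxylate prolines of the chains, and Plod1 and Plod2 their lysines. Of 16 secretion, processing and crosslinking genes 2 were higher, among them the procollagen protease gene Bmp1 (0.48), and 3 lower: Pcolce2, its enhancer (−1.27), Adamts3, which trims the other end (−1.02), and the crosslinking enzyme gene Loxl3 (−0.91). Of 13 fibril regulators 6 were higher, with Dpt (4.23), Kera (2.58) and Dcn (1.15) the furthest, and Fmod was lower (−1.24). Fmod, a small proteoglycan that binds fibrils, was lower in the distal (−1.48) and proximal mandible (−1.28) as well.

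In the same comparison, with 12.2% of all genes higher and 11.1% lower, basement membrane partners were higher in 7 of 14, among them the laminin genes Lama3 (1.13) and Lamb2 (0.66) and the nidogen genes Nid2 (0.86) and Nid1 (0.44). Of 7 receptor genes 3 were higher: Ddr2 (0.63), Mrc2 (0.33) and Itgb1 (0.27). Of 11 degrading enzymes and inhibitors 3 were higher (Fap, 0.78, Reck, 0.62, and Timp2, 0.29) and the cartilage and bone collagenase gene Mmp13 was lower (−2.86). The cartilage collagens, by contrast, were lower in 5 of 6, among them Col2a1, which fell by 3.11, beside the lower chondrocyte marker means. In the distal mandible 3 of the 13 regulators, Fmod, Aspn (−1.08) and Tgfbi (−0.80) were lower. In control jaws 14 of 18 folding genes were higher and 1 lower in mandible than in maxilla, where 16.9% of all genes were higher and 19.4% lower. P4ha2 (0.99), P3h2 (0.79) and P3h4 (0.60) were among the higher.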

How the data were processed

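RNA from 24 jaw pieces was hybridised to Affymetrix mouse arrays. The authors deposited 1 log2 value per probe set and array; the submitters' processing notes name RMA and Partek 6.6, without settings. Of 45101 probe sets, 34958 carried 1 gene symbol in the platform annotation, 932 several and 9211 none listed; single-symbol probe sets covered 18193 genes, and 64 array controls were left out. The brightest probe set stood for a gene. Genes above the array's median in at least 3 arrays were tested (12811). The deposited log2 values ranged from 3.44 to 14.8, and depth is set by the number of arrays; the median standard error of a regional difference was 0.106.

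Differences were tested two-sided with limma 3.58.1 (R 4.3.3; lmFit and eBayes) in 1 fit of 24 arrays in 8 groups, with Benjamini-Hochberg adjustment over all genes tested and a threshold of 0.05. For the average of regions, the 4 arrays sharing genotype and number were averaged (3 against 3); the labels do not say that these came from 1 embryo. The script was tested on simulated data. No 2 arrays of a group were duplicates (smallest root mean square difference 0.175).

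The genes and the lists of partners and markers were chosen with earlier results of these data known. Array values, in the regions described and not in all, are given for the 12 chains with the largest regional differences among those that passed. They are also given for Col1a1, Col1a2, Col3a1, Col4a1 and Col4a2. Of other lists up to 4 genes that passed are named. Other chains' array values, and Col8a2, Hand2 and 3 chains high in the proximal mandible, were chosen after their values were seen. The alternatives were the dim-gene filter, the mean of probe sets, the arrays fitted, a replicate block, array weights, the variance prior, normalization, the omission of arrays and marker means as covariates; the keratinocyte covariate was added after seeing the data.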

Additional observations from a re-analysis of the deposited data

Results flagged for a closer look

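The genotype difference itself differed between jaws, by the interaction test in limma, for 5 of the 29 chains. Of all genes 8.26% passed, 3.93% higher and 4.33% lower. Each of the 5 chains had a lower mutant minus control difference in mandible than in maxilla. Each lost its call with the nasal and muscle means as covariates. Of 33 other settings, the call was lost in 21 for Col5a1 and in 20 for Col6a3. The difference between jaws was −1.01 for Col19a1, −0.71 for Col5a1, −0.94 for Col6a1, −0.69 for Col6a2 and −0.45 for Col6a3. For the type VI chains the rise in the maxilla lay in the proximal end, with differences of −0.05 to 0.03 in the distal maxilla. With 3 arrays a group, single arrays were not tested for standing apart.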

How the results depend on the processing

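The proximal maxilla count of 16 chains was 7 when fitted on its own 6 arrays, 2 without the 3 mutant maxilla arrays lacking nasal markers (1 mutant array left), 0 with the nasal and muscle covariates, 4 with the keratinocyte covariate and 11 to 20 leaving out 1 array. The distal maxilla count of 0 was 2 with array weights and 0 to 1 leaving out 1 array (1 without control distal maxilla 2). The distal mandible count of 0 was 2 with only its own arrays, 1 with the replicate block, 2 with weights and 0 to 0 leaving out 1 array. The proximal mandible count of 0 was 1 with the block, 6 with weights, 1 with quantile normalization, 3 without the 3 arrays, 2 with nasal and muscle covariates and 0 to 0 leaving out 1 array. The average of regions (1 chain) gave 10 from all 24 arrays, 0 with the block, 2 with weights, 2 with the trended robust prior, 0 with quantile normalization or either covariate set and 0 to 1 leaving out 1 number; leaving out the 3 arrays was not run there, as the averages would hold different regions. The jaw difference (5 chains) gave 11 with the block, 12 with weights, 2 without the 3 arrays and 0 with nasal and muscle covariates. Leaving out 1 array it gave 3 to 10: 3 without any 1 of 15 arrays (the mandible arrays other than control proximal 2 and mutant proximal 1, control distal maxilla 3, control proximal maxilla 2 and 3, mutant proximal maxilla 1 and 2), 8 without mutant distal maxilla 2 or 3 and 10 without mutant proximal maxilla 3. Col5a1 and Col6a3 were the calls most often lost. The end difference (0) gave 12 with weights and 0 to 4 leaving out 1 array (4 without mutant distal maxilla 1). The control jaw count of 16 was 3 with nasal and muscle covariates and 13 to 16 leaving out 1 array. The control end count of 3 was 6 with only control arrays, 7 with the block, 10 with weights, 6 without the 3 arrays, 0 with the keratinocyte covariate and 2 to 4 leaving out 1 array. With nasal and muscle covariates the direction turned for Col18a1 in the proximal maxilla (−0.037) and, between control jaws, for Col1a1 (−0.14), Col1a2 (−0.033), Col20a1 (−0.28), Col3a1 (−0.15), Col5a1 (−0.14), Col6a1 (−0.31), Col6a2 (−0.18), Col6a3 (−0.10) and Col8a1 (0.32). The covariates themselves differ between the groups compared. The cause of these moves was not tested. The share of all genes that passed also changed with the setting. In the proximal maxilla it was 23.3%, but 2.29% with the keratinocyte covariate and 0.351% with the nasal and muscle covariates. In the proximal mandible it was 4.34%, but 13.2% with weights. A changed count of chains is therefore not by itself a result about collagens. Arrays of different groups with the same replicate number correlated over 0.1 in 58 of 84 pairs (median 0.20, against −0.10 for different numbers). Not every pair did, and the labels do not say what the numbers mark, so numbers were not taken as pairing. Yet all 24 arrays were on average most like their own number in the other groups. The main fit treats the arrays as independent and leaves this likeness out. The replicate block, and the average of regions, which joins arrays by number, may therefore matter. The 2 differences of differences have no value from the arrays of 1 region. Of 849 rechecks of single chains that passed, 157 lost the call and 10 turned direction.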
